A study of Mus musculus with 42 samples.

Results

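The genes described here are 36 genes of the cell cycle, listed by symbol, in cerebellar neurons sorted by hand from mice between postnatal day 3 (P3) and P56. Of these genes, 35 had at least 1 probe set carrying their symbol alone, with 85 probe sets between them, out of 18194 genes and 45101 probe sets on the array; Ccnb1 had none and was not measured. The 35 comprise 10 genes of DNA replication and nucleotide supply (Mcm2, Mcm3, Mcm4, Mcm5, Mcm6, Mcm7, Pcna, Rrm1, Rrm2 and Tyms), 9 genes of the G1 phase (Ccnd1, Ccnd2, Ccnd3, Ccne1, Ccne2, Cdk2, Cdk4, Cdk6 and E2f1), 12 of the 13 listed genes of G2 and mitosis (Mki67, Top2a, Ccna2, Ccnb2, Cdk1, Aurka, Aurkb, Bub1, Bub1b, Cdc20, Plk1 and Birc5), and 4 inhibitors of cyclin-dependent kinases (Cdkn1a, Cdkn1b, Cdkn1c and Cdkn2c).

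The 2 neuron types were picked by green fluorescence and soma size: Purkinje cells, the large inhibitory neurons that carry the output of the cortex of the cerebellum, and Stellate/Basket cells, small inhibitory interneurons that lie in the molecular layer around their dendrites. Purkinje cells were represented by 3 arrays at each of P3, P7 and P14 and by 4 arrays at each of P21, P28, P35 and P56, and Stellate/Basket cells by 4 arrays at both P14 and P28, by 3 arrays at P21, and by 2 arrays at both P35 and P56. All groups came from the strain CB6-Tg(Gad1-EGFP)G42Zjh/J, in which a Gad67-GFP bac transgene marks inhibitory neurons, from animals given as male, and all passed through slicing in AP5, CNQX and TTX, protease digestion and 2 rounds of RNA amplification. The transgene is carried by both cell types, so soma size was what separated them at the sort.

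In a dividing cell, D-type cyclins with Cdk4 and Cdk6, then E-type cyclins with Cdk2, release E2F factors from retinoblastoma proteins, and E2F factors switch on the genes of DNA replication. A second group of genes, for the entry into and the passage through mitosis, is switched on later, and inhibitors of the p21 (Cdkn1a, Cdkn1b, Cdkn1c) and p16 (Cdkn2c) families hold the kinases back. Purkinje cells are born before birth and no longer divide at the ages studied, precursors of Stellate/Basket cells still divide in the early postnatal cerebellum, and granule cell precursors divide in its outer layer during the same weeks.

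Values are log2 expression as deposited, so a difference of 1 is a 2-fold difference, and they carry no detection calls. A gene was read from its probe set with the highest mean. It was called changed when limma gave a Benjamini-Hochberg adjusted p under 0.05 over 17478 genes and a log2 difference of at least 1; a ± after a difference is its standard error. All 35 genes passed the filter on low values, which asked for 3 or more arrays with a log2 value over 5, but Aurka, Birc5, Bub1b, Plk1 and Tyms stayed below 6.5 in every array. The replicates are labelled biological and nothing says how many animals each holds, so the spread between arrays of a group may be technical. The p-values rest on 1 such spread per gene, pooled over all 12 groups and not only over those compared.

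Several arrays stood apart from their labels. Arrays labelled Purkinje P3 had a mean log2 level over 9 measured Purkinje markers of 9.11, 8.31 and 6.71, and those labelled P7 of 9.14, 9.91 and 10.26, against group means between 12.81 and 13.10 at the later Purkinje ages. The same early arrays carried the markers of molecular layer interneurons: the mean over 9 of these ran between 9.25 and 10.30 at P3 and P7, against 5.42 to 6.54 in the later Purkinje arrays and 10.48 to 10.93 in Stellate/Basket cells at P14. The 2 arrays labelled Stellate/Basket P56 went the other way, with Purkinje marker means of 12.70 and 11.32, interneuron marker means of 6.60 and 6.69, and astrocyte and Bergmann glia marker means of 10.73 and 11.18. Xist, transcribed from the inactive X chromosome of female cells, was at 6.38, 12.75 and 12.45 in the Purkinje P3 arrays and in the range of 12.77 to 12.88 in those of Stellate/Basket P14, although every animal is given as male. At P35 and P56, 1 further Stellate/Basket column was within 1e-08 the mean of the rest of its group and was left out, leaving 25 Purkinje and 15 Stellate/Basket arrays.

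The array Purkinje P7 replicate 1 stood apart from the other P7 arrays in the cell cycle genes. Of the 35 genes, 13 were higher in it by at least 1 than in the mean of replicates 2 and 3, against 3.14% of all genes, and the median difference was 0.38. In that array 3 of 6 markers of granule cell precursors were also higher by at least 1 (Gli2 was at 9.35, against 6.48 and 6.08 in replicates 2 and 3, and Ptch1 at 9.58, against 8.41 and 8.10), as were 6 of 12 markers of astrocytes and Bergmann glia. Atoh1, the defining transcription factor of granule cell precursors, was at 5.39, against 5.30 and 5.28, near the bottom of the scale in all 3 arrays. None of the 8 microglia, 8 oligodendrocyte, 7 vessel or 4 interneuron progenitor markers was higher by at least 1, and 1 of 6 granule neuron markers was. Of 3 sex chromosome genes, Xist was at 7.22 in this array, against 12.47 and 12.34 in replicates 2 and 3. Eif2s3y was at 8.64, against 4.15 and 4.24, and Kdm5d differed by 0.17. Of 9 interneuron markers 4 were lower and 1 higher, and 4 of 9 Purkinje markers were lower. The part of these cells or of sex in the values of the cell cycle genes was not tested. The calls at P14 against P7 and the counts over all Purkinje ages are given with and without this array. It also enters the pooled spread, and so the tests in which P7 takes no part. Without it the count was 1 in place of 0 for Purkinje P56 against P14. It was 8 in place of 7 for the difference between the changes from P14 to P56. Over the Stellate/Basket ages it was 10 in place of 8. Shares of all genes were not counted for these 3 fits.

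**Figure D1:**
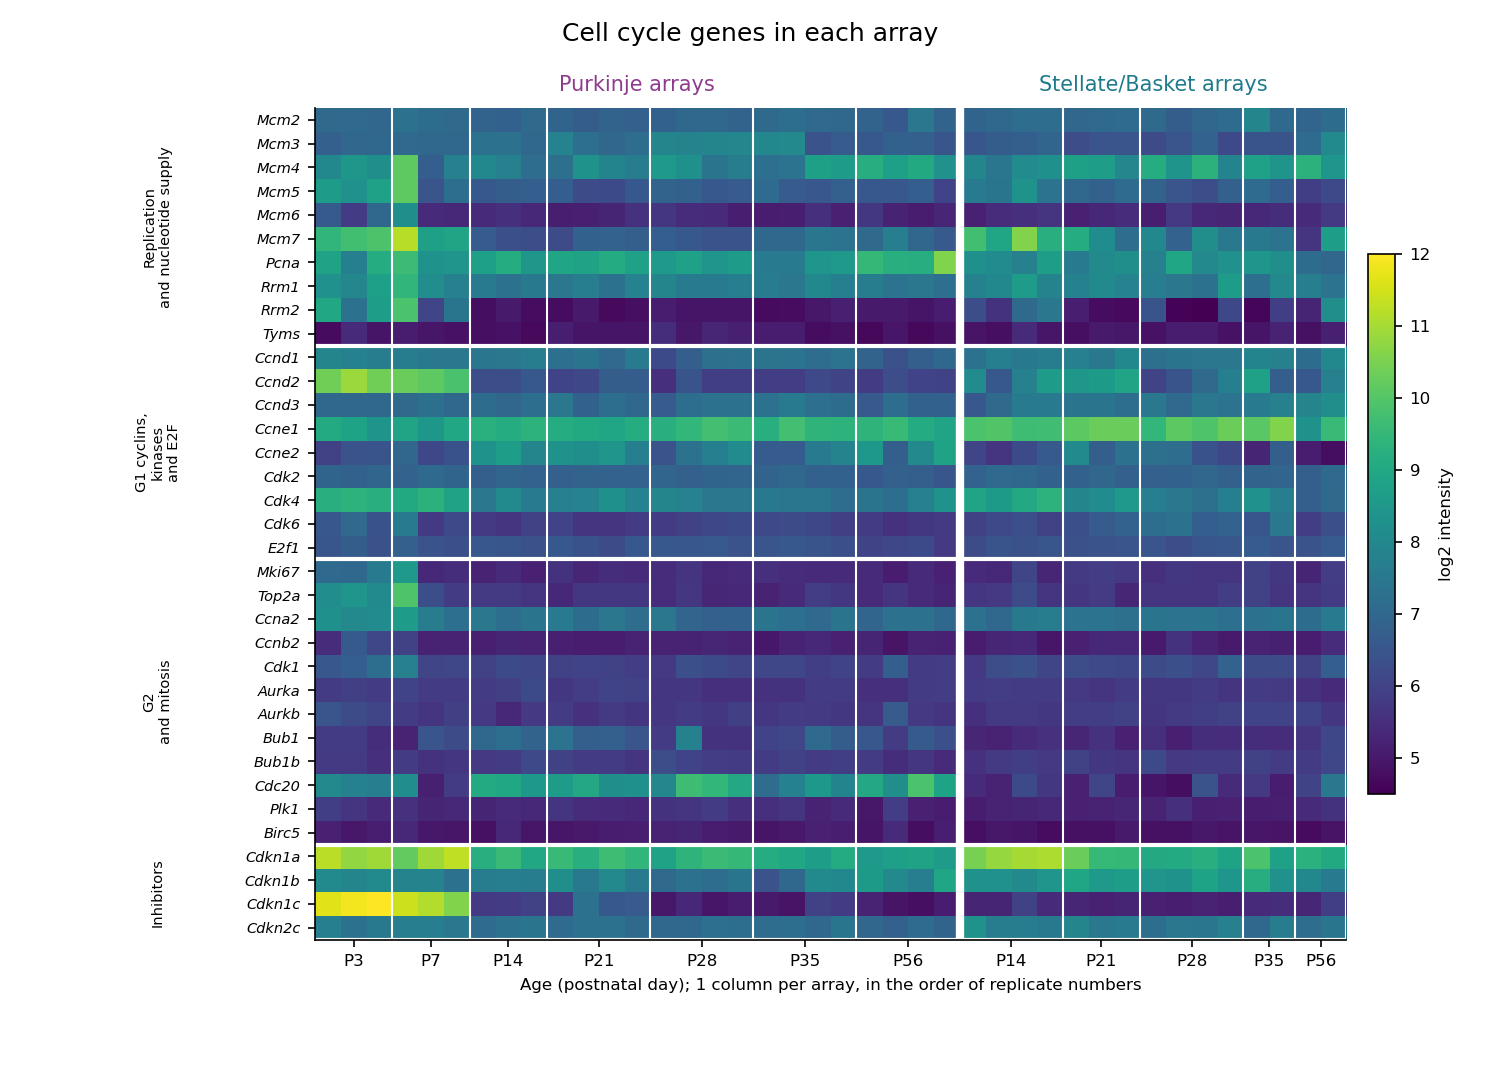
Log2 expression of the 35 measured cell cycle genes (down the page, grouped by role) in the 40 arrays (across, by cell type and age). The P3 and P7 Purkinje arrays at the left are brighter than the later Purkinje arrays for Cdkn1c, Ccnd2, Mcm7 and Rrm2. The P3 arrays are also brighter for Top2a, and Purkinje P7 replicate 1 is brighter by at least 1 than the mean of the other P7 arrays in 13 genes.

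The promoters of 6 genes are shown first because genes of replication and genes of mitosis are known to carry different motifs near their start. These windows hold the 250 bases before the start of each gene, from RefSeq on GRCm38.p6, read 5′ to 3′ on the strand of the gene. Capitals mark the letters TTTGAA (a core of the cell cycle homology region, found in late cell cycle genes), TTTCCCGC or TTTGGCGC (forms of the E2F site), and CCAAT (the box bound by NF-Y), each searched on both strands, and no matches overlapped in the 33 windows of the listed genes. The first pair are genes of mitosis, Top2a at chr11:99024190-99024439 on the minus strand and Mki67 at chr7:135716380-135716629 on the minus strand. They are followed by replication genes, Mcm5 at chr8:75109259-75109508 on the plus strand, Mcm6 at chr1:128359706-128359955 on the minus strand and Rrm2 at chr12:24708004-24708253 on the plus strand, and by Cdc20 at chr4:118437344-118437593 on the minus strand, whose level differed most between the cell types.
Top2a: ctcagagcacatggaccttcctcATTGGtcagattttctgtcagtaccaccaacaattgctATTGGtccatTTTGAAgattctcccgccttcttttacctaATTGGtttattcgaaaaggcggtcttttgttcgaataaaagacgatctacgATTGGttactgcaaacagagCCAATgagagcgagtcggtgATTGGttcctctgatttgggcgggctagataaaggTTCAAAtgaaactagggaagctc
Mki67: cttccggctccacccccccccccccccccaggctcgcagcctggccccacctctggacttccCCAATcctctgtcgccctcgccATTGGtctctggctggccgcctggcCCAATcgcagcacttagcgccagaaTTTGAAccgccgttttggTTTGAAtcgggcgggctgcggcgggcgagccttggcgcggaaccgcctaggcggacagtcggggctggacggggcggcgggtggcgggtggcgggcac
Mcm5: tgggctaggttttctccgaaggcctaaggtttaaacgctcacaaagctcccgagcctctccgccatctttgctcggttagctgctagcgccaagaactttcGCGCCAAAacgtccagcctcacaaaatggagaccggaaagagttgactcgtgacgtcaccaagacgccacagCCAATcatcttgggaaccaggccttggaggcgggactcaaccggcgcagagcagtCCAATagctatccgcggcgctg
Mcm6: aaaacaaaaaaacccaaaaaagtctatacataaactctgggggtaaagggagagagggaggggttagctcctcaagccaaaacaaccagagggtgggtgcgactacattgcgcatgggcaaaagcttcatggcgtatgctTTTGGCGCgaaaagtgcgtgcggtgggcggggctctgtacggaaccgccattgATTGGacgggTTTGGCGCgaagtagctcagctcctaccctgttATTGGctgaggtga
Rrm2: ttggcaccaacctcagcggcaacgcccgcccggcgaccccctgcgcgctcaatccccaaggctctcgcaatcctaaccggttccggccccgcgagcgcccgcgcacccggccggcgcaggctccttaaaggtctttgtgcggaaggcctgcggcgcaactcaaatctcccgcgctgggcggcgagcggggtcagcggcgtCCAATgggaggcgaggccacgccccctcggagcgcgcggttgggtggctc
Cdc20: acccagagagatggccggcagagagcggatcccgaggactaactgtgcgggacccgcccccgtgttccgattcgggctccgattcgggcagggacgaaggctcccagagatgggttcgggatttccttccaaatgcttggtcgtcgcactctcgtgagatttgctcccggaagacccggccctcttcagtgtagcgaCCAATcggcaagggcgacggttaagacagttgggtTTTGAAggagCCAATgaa

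The Top2a window held 2 TTTGAA matches among 6 CCAAT boxes, and the Mki67 window 2 TTTGAA matches and 3 CCAAT boxes. Mcm5 held 1 E2F site and Mcm6 held 2, while Rrm2 held neither an E2F site in these letters nor a TTTGAA match and had 1 CCAAT box. Over the 32 windows of the 28 measured genes that matched the RefSeq table, TTTGAA stood in 6 (Ccnb2, Cdc20, Cdk1, Mcm2, Mki67 and Top2a), an E2F site in 4 (Cdk2, Mcm5, Mcm6 and Mcm7) and CCAAT in 21. Among all 32851 promoters of the same length, TTTGAA stood in 15.99%, an E2F site in 1.3% and CCAAT in 33.85%. A match describes letters in the window only.

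The change with age in arrays labelled Purkinje was asked first, at P56 against P3. The level over the Purkinje markers ran between 12.91 and 13.11 at P56, against 6.71 to 9.11 at P3, and that over the interneuron markers averaged 5.63 at P56, against 9.98 at P3; their part in the results of this comparison was not tested. Of the 35 genes, 11 fell and 2 rose, 13 in all, where 16.5% of all genes were called (7.81% lower and 8.71% higher). The genes that fell came from every role: 4 of replication and nucleotide supply, 3 of G1, 2 of mitosis and 2 inhibitors. The median difference over the 35 was -0.51, beside -0.04 over all genes tested. Without Purkinje P3 replicate 3, whose Purkinje marker mean was lowest, 13 genes were called, but not the same 13. Mcm6 lost its call there (-0.89), and the share of all genes was not counted. In these sorted samples, fewer cells of a type and less RNA per cell cannot be told apart.

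The inhibitor Cdkn1c (1417649_at), a p57 protein that holds cells out of the cycle and is expressed in newly postmitotic cells, changed most. It was at 5.26, 4.90, 4.82 and 5.08 at P56, against 11.67, 11.87 and 12.04 at P3. All P56 arrays lay near the bottom of the scale and all P3 arrays among the brightest values of any of the 35 genes, with no overlap. The difference was -6.85 ± 0.25, a 115-fold lower level (limma, adjusted p = 8.58e-20). The other inhibitor that fell, Cdkn1a (1424638_at), a p21 protein and a target of p53, was at 8.52, 8.72, 8.83 and 8.65 at P56, against 11.24, 10.79 and 10.92 at P3. Its levels did not overlap, and it remained well above the bottom of the scale at P56 (-2.30 ± 0.24, adjusted p = 2.89e-09). Cdkn1b, the p27 inhibitor of mature neurons, differed by 0.28 and did not pass, and Cdkn2c, a p18 protein that binds Cdk4 and Cdk6, by -0.59 with an adjusted p under 0.05 but less than the required size.

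Among the genes of G1, Ccnd2 (1416122_at), the D-type cyclin of neural progenitors, was at 5.84, 6.27, 6.0 and 5.98 at P56, against 10.36, 10.86 and 10.37 at P3. The groups were separated by more than 4 log2 units and did not overlap (-4.51 ± 0.40, 22.8-fold lower, adjusted p = 7.23e-11). Cdk4 (1422441_x_at), the kinase partner of the D-type cyclins, was at 7.39, 7.2, 7.77 and 8.36 at P56, against 9.20, 9.34 and 9.24 at P3, again without overlap (-1.58 ± 0.22, adjusted p = 6.67e-07). Ccnd1, another D-type cyclin, was at 6.87, 6.37, 6.77 and 7.05 at P56, against 7.91, 7.78 and 7.67 at P3, and its difference of -1.02 ± 0.20 passed the size by little (adjusted p = 1.09e-04). The call was lost without Purkinje P56 replicate 2 (-0.89) and also with P35 in place of P56 (-0.46).

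Ccne2, an E-type cyclin that activates Cdk2, ran opposite to the D-type cyclins. It was at 8.51, 6.78, 8.04 and 8.83 at P56, against 5.98, 6.43 and 6.45 at P3, so that even the lowest P56 array lay above every P3 array (1.75 ± 0.43, adjusted p = 0.00171). With P35 as the last age the difference was 0.92 and not called (adjusted p = 0.103). Cdk2 (-0.24), Cdk6 (-0.93) and E2f1 (-0.51) had adjusted p-values under 0.05 with smaller differences, and Ccnd3 (-0.16) and Ccne1 (0.46) did not pass.

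Among the genes of replication, Rrm2 (1434437_x_at), the regulated subunit of ribonucleotide reductase, was at 5.04, 5.05, 4.94 and 5.06 at P56, against 8.98, 7.31 and 8.70 at P3. The P56 arrays lay within a narrow band at the bottom of the scale and the P3 arrays spread over a wider range above it (-3.31 ± 0.61, 9.91-fold lower, adjusted p = 6.52e-05). Mcm7 (1438320_s_at), a subunit of the replicative helicase, was at 7.10, 7.70, 6.97 and 6.58 at P56, against 9.44, 9.74 and 9.92 at P3. Its arrays did not overlap (-2.61 ± 0.52, adjusted p = 1.67e-04).

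Read from the probe sets with the highest mean, the helicase subunits did not move together. Mcm5 was at 6.56, 6.53, 6.74 and 6.02 at P56, against 8.62, 8.29 and 8.80 at P3 (-2.11 ± 0.42, adjusted p = 1.70e-04), and Mcm6 at 5.70, 5.25, 5.11 and 5.30, against 6.62, 5.84 and 7.04 (-1.16 ± 0.37, adjusted p = 0.0147). In these probe sets Mcm5 was apart in every array, and Mcm6 was dim at both ages and nearly touching between them: its difference was -0.89 without P3 replicate 3. The other Mcm6 probe set fell by more and was called (-2.25), and neither further one of Mcm5 was (-0.50 and 0.17). Mcm2 (-0.09), Mcm3 (-0.26) and Mcm4 (0.58), subunits of the same helicase, did not pass. Pcna, the sliding clamp of DNA polymerase, was the only gene of this role to rise, at 9.51, 9.25, 9.16 and 10.59 at P56, against 8.82, 7.74 and 9.14 at P3. Its groups nearly touched (1.06 ± 0.34, adjusted p = 0.0157), and the difference was 0.64 without P3 replicate 2. It was -0.53 with P35 as the last age, of the opposite sign, and 0.95 with a replicate block, and was called in neither.

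Among the genes of mitosis, Top2a (1454694_a_at), the topoisomerase that untangles replicated chromosomes, was at 5.39, 5.64, 5.41 and 5.28 at P56, against 8.18, 8.42 and 8.09 at P3 (-2.80 ± 0.46, 6.96-fold lower, adjusted p = 1.22e-05). Mki67, the proliferation marker Ki-67, was at 5.40, 5.10, 5.40 and 5.19 at P56, against 7.06, 7.05 and 7.56 at P3 (-1.95 ± 0.38, adjusted p = 1.40e-04). Both were near the bottom of the scale at P56 and clearly above it in all 3 P3 arrays. Cyclins and kinases of the same phase differed less: Ccna2 by -0.98, Ccnb2 by -0.92, Cdk1 by -0.78 and Plk1 by -0.38, all with adjusted p under 0.05. Aurka, Aurkb, Bub1, Bub1b, Birc5 and Cdc20 did not pass, with differences between -0.35 and 1.13, the highest of them for Cdc20 (adjusted p = 0.0863). In all, 9 genes had an adjusted p under 0.05 with a difference below the required size, and all 9 were lower at P56.

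Other probe sets of the same genes did not always follow. Of the 13 called genes, 4 had a single probe set, and in 5 all other probe sets were called the same way, among them the 5 further probe sets of Ccnd2 (-4.92 to -1.28), both of Cdk4 and the other one of Cdkn1a (-2.57). For Rrm2, 1 of 2 further probe sets was called (-1.47 and -0.16). For Top2a, Mcm5 and Mcm7 no other probe set was called, with differences of -0.09 and -0.08 for Top2a, between -0.50 and 0.17 for Mcm5, and between -0.98 and -0.60 for Mcm7.

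**Figure D2:**
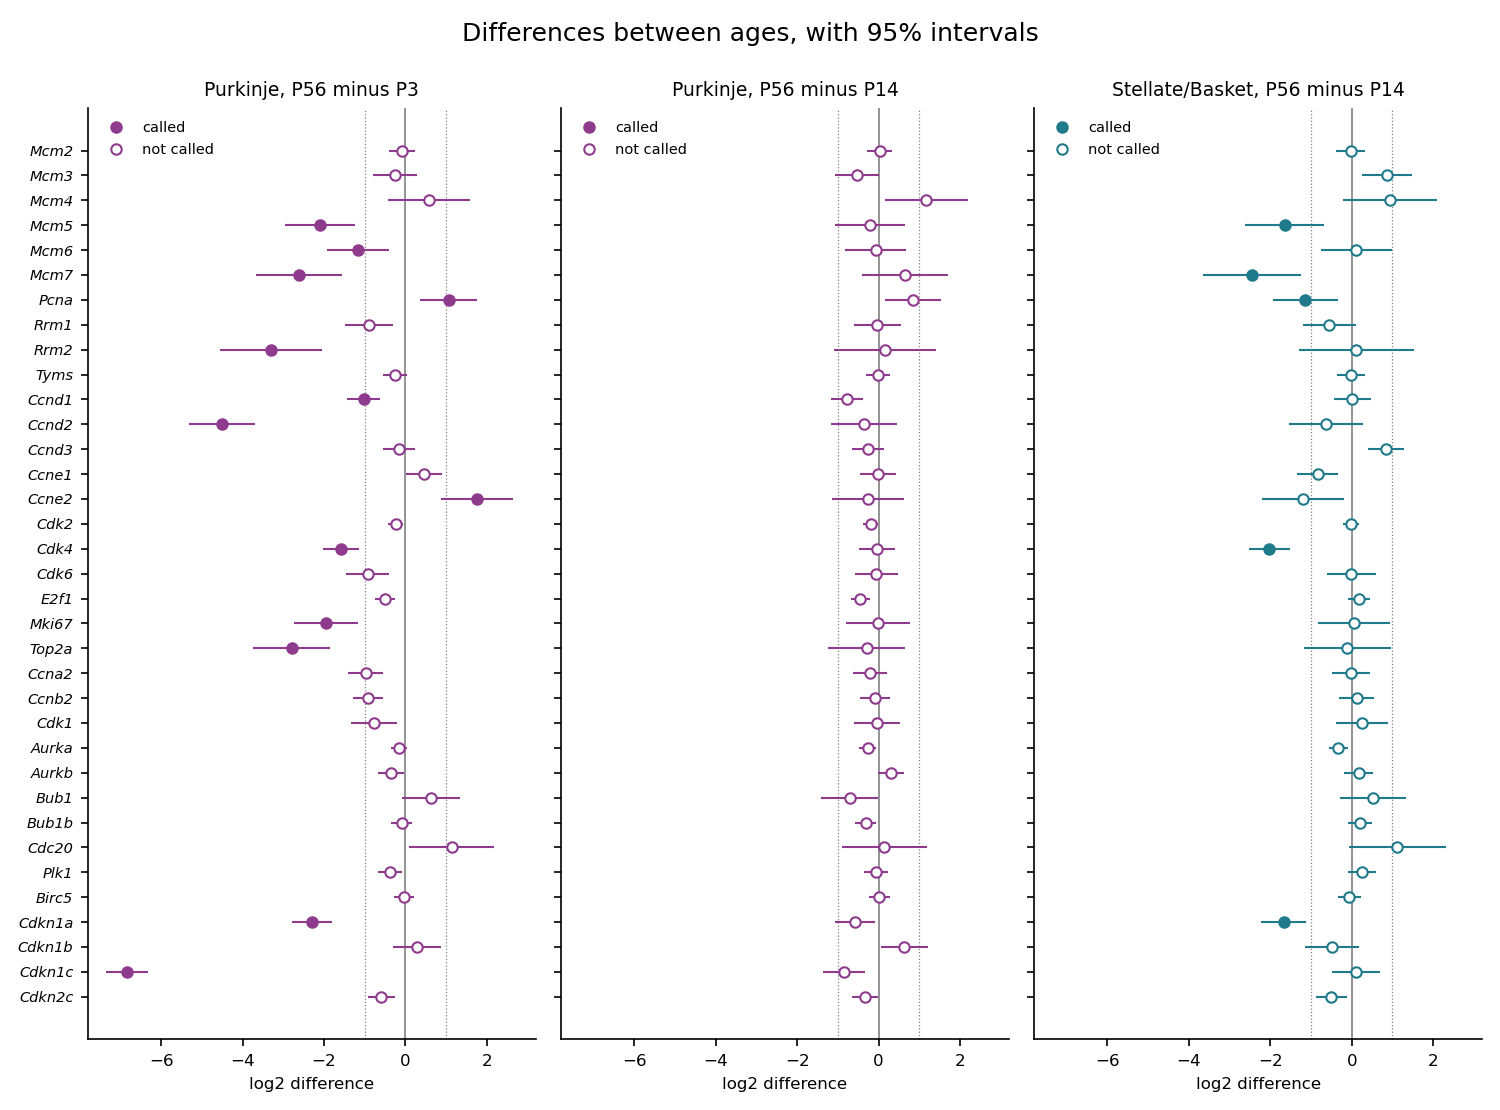
Log2 differences with 95% intervals for the 35 genes in Purkinje cells at P56 against P3 and against P14 and in Stellate/Basket cells at P56 against P14; filled points are called and dotted lines mark differences of 1 either way. Cdkn1c at -6.85 and Ccnd2 at -4.51 lie farthest out in the first panel, no point is filled in the second, and 5 are filled in the third.

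At P14 against P7, 9 genes fell and 3 rose, 12 in all, where 12.7% of all genes were called (6.95% lower and 5.79% higher). Here too the cell type markers moved: the mean over the Purkinje markers was 13.10 at P14, against 9.77 at P7, and that over the interneuron markers 5.58, against 9.88, and their part was not tested. The median over the 35 was -0.26, beside 0.07 over all genes, and without Purkinje P7 replicate 1 it was -0.02, beside 0.06. Without that array the count was 8, where 11.3% of all genes were called: Cdkn1c, Ccnd2, Mcm7, Rrm2, Cdkn1a and Cdk4 fell, and Cdc20 and Ccne2 rose.

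Cdkn1c was at 5.78, 5.83 and 5.97 at P14, against 11.42, 11.13 and 10.58 at P7 (-5.18, adjusted p = 8.58e-16, and -4.99 without P7 replicate 1). Ccnd2 was at 6.28, 6.32 and 6.56 at P14, against 10.32, 10.15 and 9.85 at P7 (-3.73, adjusted p = 2.82e-08, and -3.62). For both genes the P7 arrays lay nearer to the P3 than to the P56 levels, and the P14 arrays the other way round. Cdk4 was at 7.47, 8.08 and 7.58 at P14, against 9.07, 9.33 and 8.81 at P7 (-1.36 with that array and -1.36 without it, adjusted p = 3.58e-05 with it). Cdkn1a was at 9.21, 9.57 and 8.97 at P14, against 10.19, 10.92 and 11.27 at P7 (-1.55, adjusted p = 2.17e-05, and -1.85). These 4 genes had no overlap between the ages in any array.

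Among the genes of replication and mitosis that fell, Rrm2 and Mcm7 kept their calls without P7 replicate 1, and Top2a, Mki67 and Mcm5 lost theirs. Rrm2 was at 4.79, 5.04 and 4.75 at P14, against 9.89, 6.06 and 7.4 at P7 (-2.93, adjusted p = 0.00103, and -1.87 without replicate 1). Mcm7 was at 6.67, 6.34 and 6.31 at P14, against 11.19, 8.77 and 8.88 at P7 (-3.17, adjusted p = 4.93e-05, and -2.39). In Rrm2 and Mcm7 the other P7 arrays also lay above every P14 array. None of the 3 further Mcm7 probe sets was called (-0.93 to -0.74), so its call rests on 1 probe set, and 1 of 2 of Rrm2 was (-1.30 and -0.07). Top2a was at 5.77, 5.77 and 5.63 at P14, against 9.94, 6.30 and 5.81 at P7, and its difference was -1.63 (adjusted p = 0.0155) with replicate 1 and -0.33 without it. Mki67 was at 5.26, 5.43 and 5.19 at P14, against 8.57, 5.33 and 5.47 at P7, with -1.16 (adjusted p = 0.0397) and -0.11 without replicate 1. Mcm5 was at 6.57, 6.72 and 6.73 at P14, against 10.13, 6.48 and 7.22 at P7, with -1.27 (adjusted p = 0.0413) and -0.18. In these 3 genes the other P7 arrays lay close to the P14 level, so the calls rested on 1 array. No further probe set of Top2a (-0.08 and 0.32) or Mcm5 (-0.49 and 0.04) was called.

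Cdc20, the activator of the anaphase-promoting complex, rose at this step. It was at 9.08, 8.95 and 8.51 at P14, against 8.17, 5.15 and 5.79 at P7 (2.48, adjusted p = 8.65e-04, and 3.38 without replicate 1). Its P3 arrays, at 8.03, 7.81 and 7.72, lay between these levels, so the 2 lower P7 arrays stood below both neighbouring ages. The other 2 Cdc20 probe sets differed by 0.39 and 0.87 and were not called, so the rise rests on 1 probe set. Ccne2 was at 8.32, 8.68 and 7.91 at P14, against 6.98, 6.14 and 6.40 at P7 (1.80, adjusted p = 0.00391, and 2.04). Bub1, a kinase of the spindle checkpoint, was at 7.04, 7.21 and 6.88 at P14, against 5.25, 6.48 and 6.23 at P7, and its call was lost without replicate 1 (1.05, adjusted p = 0.0393, and 0.69).

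**Figure D3:**
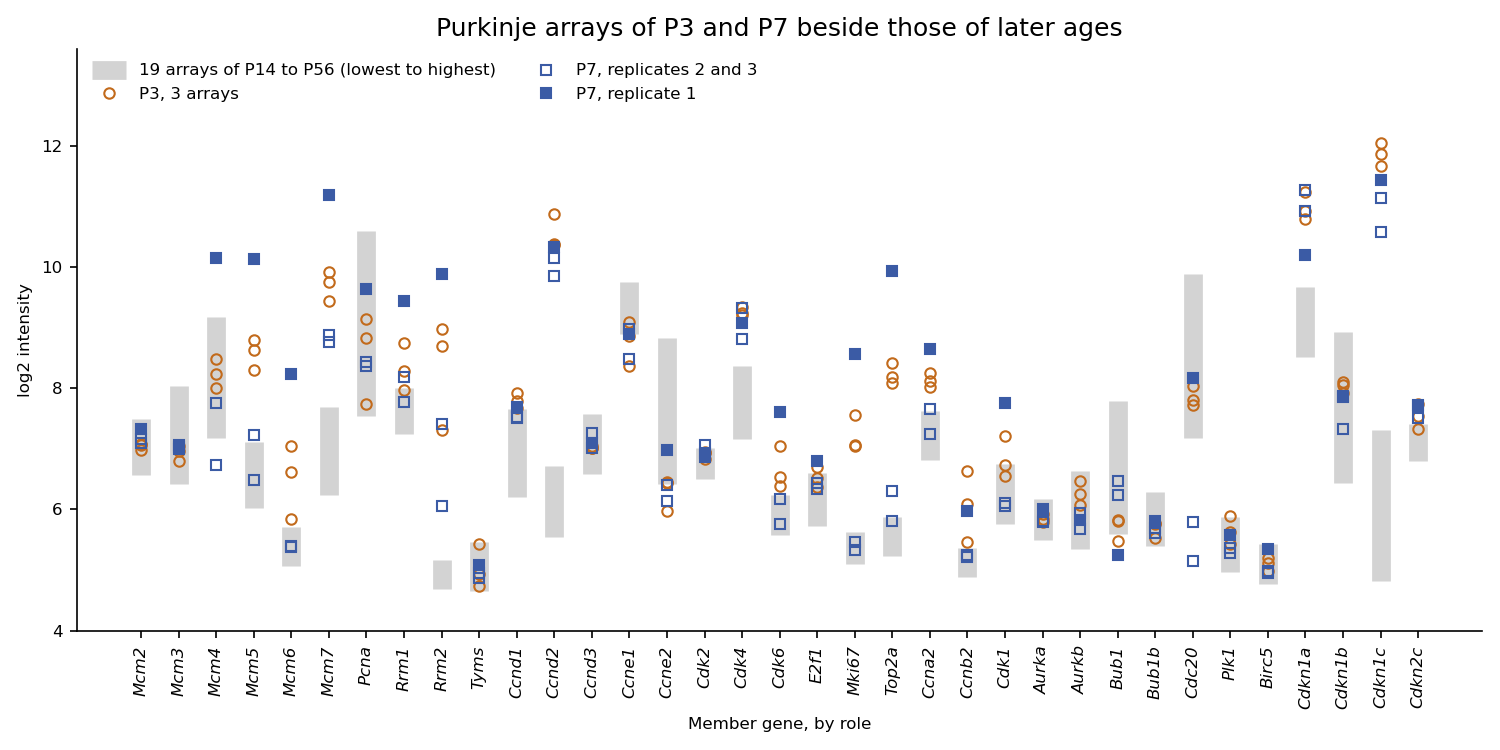
Log2 expression of the cell cycle genes in the 3 P3 and the 3 P7 Purkinje arrays, over a grey bar for the range of the 19 later Purkinje arrays; the filled square is P7 replicate 1. Cdkn1c and Ccnd2 lie above the grey range in all 6 early arrays, while Top2a, Mki67 and Mcm5 in the other P7 arrays lie in or near it.

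**Figure D4:**
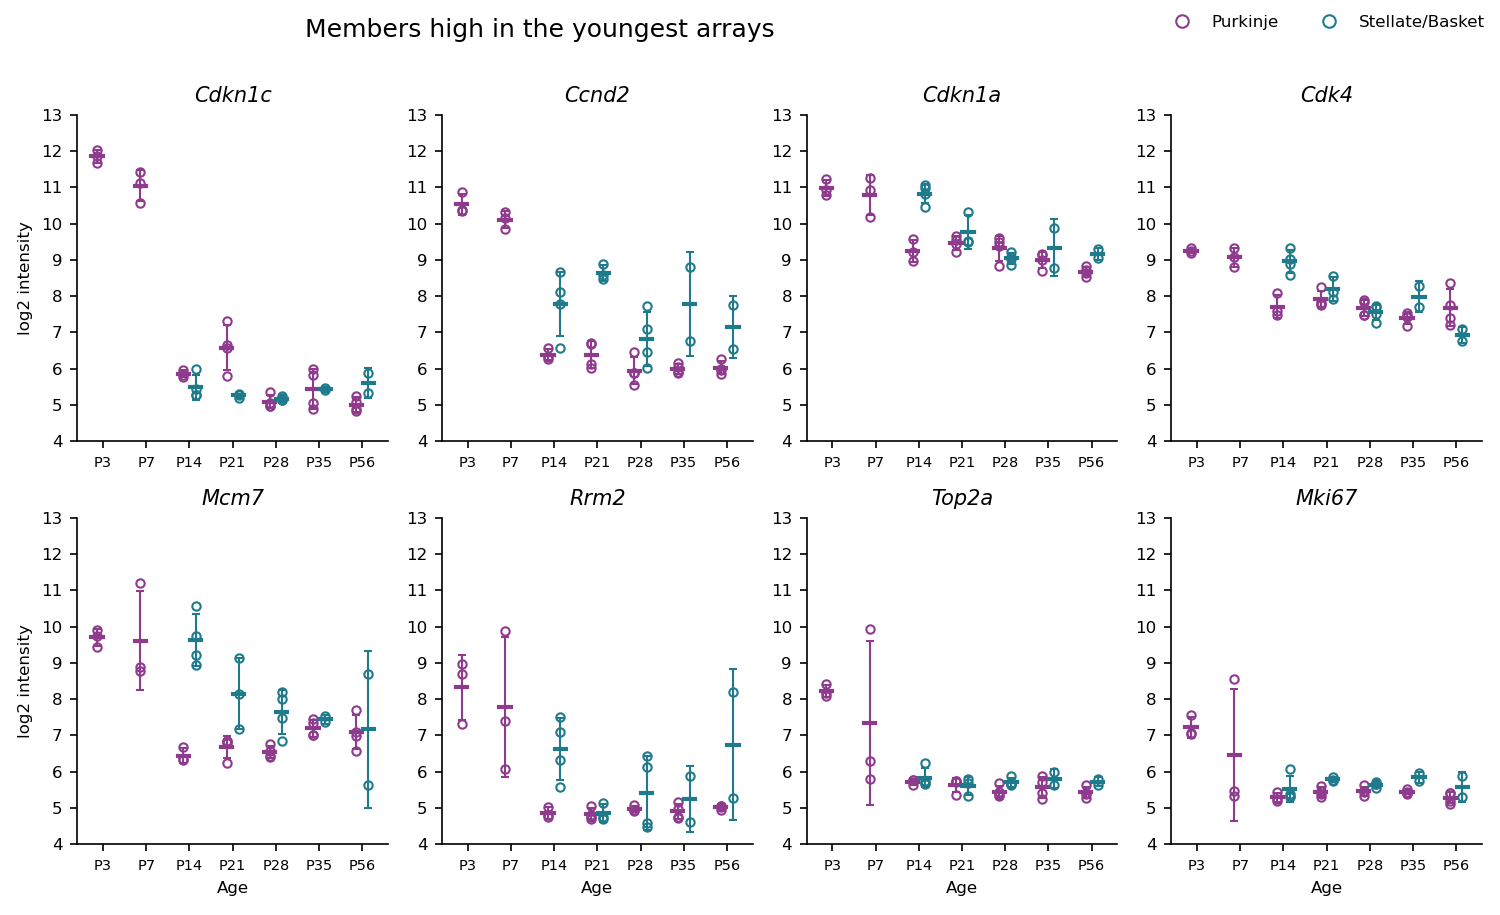
Log2 expression of Cdkn1c, Ccnd2, Cdkn1a, Cdk4, Mcm7, Rrm2, Top2a and Mki67 by age in Purkinje and Stellate/Basket cells; circles are arrays, bars group means and error bars the SD. In Purkinje cells Cdkn1c averages 5.01 at P56, against 11.86 at P3, and in Stellate/Basket cells it stays between 5.13 and 5.99 at every age.

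At P56 against P14, none of the 35 genes was called by limma, where 1.69% of all genes were. At an unadjusted p under 0.05, with no minimum difference, there were 12 of the 35. The share of all genes at that looser threshold was not counted, so the 12 cannot be set against the 1.69%. Ccnd1 (-0.78), Cdkn1c (-0.85) and E2f1 (-0.45) had adjusted p-values under 0.05 with differences below the required size. The median over the 35 was -0.08, beside -0.07 over all genes. Over the 19 arrays from P14 on, Top2a stayed between 5.24 and 5.88, Mki67 between 5.10 and 5.62 and Rrm2 between 4.69 and 5.16, while Cdc20 ran between 7.18 and 9.88.

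Over all 7 Purkinje ages, an F test called 19 of the 35 genes, where 25.8% of all genes were called, and 12 of the 19 had their highest mean at P3, as did 30.9% of all genes called. Without P7 replicate 1, 19 were called (25.5% of all genes), and 11 of these were highest at P3, beside 32.4% of all genes called. Leaving out P3 and P7, 4 were called, and the share of all genes was not counted for that test. Cdkn1c averaged highest at P21, where its arrays were at 5.79, 7.32, 6.57 and 6.64, and lowest at P56 (range of means 1.57, adjusted p = 1.01e-04). Pcna was highest at P56 and lowest at P35 (1.59, adjusted p = 0.00565), with P35 arrays at 7.55, 7.59, 8.44 and 8.56. Mcm3 was highest at P28, where 4 arrays lay between 7.84 and 7.96, and lowest at P56 (1.23, adjusted p = 0.00716); at P35 its arrays were at 7.98, 8.04, 6.41 and 6.69, so the 4 P35 arrays fell into 2 pairs. Cdkn1b was highest at P56 and lowest at P28 (1.04, adjusted p = 0.0206), and its P35 arrays also split, at 6.43 and 7.03 and at 8.10 and 8.02. Replicates 1 and 2 at P35 were thus high in Mcm3 and low in Pcna and Cdkn1b relative to replicates 3 and 4.

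In Stellate/Basket cells, at P56 against P14, 5 of the 35 genes fell and none rose, where 18.7% of all genes were called, so the share of the 35 lay below the background. The 2 P56 arrays carry Purkinje and glial markers, as given above. Each value is therefore followed by the difference at P35 against P14, a comparison chosen with earlier results of these data known. Cdk4 was at 6.78 and 7.08 at P56, against 8.88, 8.59, 9.04 and 9.34 at P14 (-2.03, adjusted p = 9.83e-08, and -0.97 at P35). Cdkn1a was at 9.29 and 9.04 at P56, against 10.45, 10.82, 10.99 and 11.06 at P14 (-1.67, adjusted p = 1.29e-05, and -1.5 at P35). In both genes the groups did not overlap, and Cdkn1a was called at either late age.

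Mcm7 was at 5.64 and 8.69 at P56, against 9.74, 8.94, 10.57 and 9.22 at P14 (-2.46, adjusted p = 0.00148, and -2.18 at P35). Its P56 arrays were 3 log2 units apart: the difference was -0.93 without P56 replicate 1 and -3.98 without replicate 3. The P35 arrays, at 7.52 and 7.36, lay close together below every P14 array, and Mcm7 was called there too, but none of its 3 further probe sets was called at P56 against P14 (-0.23 to 0.19). Mcm5 was at 5.91 and 6.15 at P56, against 7.58, 7.42, 8.34 and 7.36 at P14 (-1.65, adjusted p = 0.00704, and -0.75 at P35). Neither of its 2 further probe sets was called at P56 against P14 (-0.20 and 0.75). Pcna was at 7.15 and 6.98 at P56, against 8.26, 8.12, 7.76 and 8.68 at P14 (-1.14, adjusted p = 0.0212, and 0.12 at P35), and was not called at P35. Rrm2 spread widely in these cells, at 5.27 and 8.21 at P56, against 6.31, 5.59, 7.09 and 7.50 at P14.

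Over the 5 Stellate/Basket ages the F test called 8 of the 35 genes, beside 23.9% of all genes. It called 4 without P56, where the share of all genes was not counted. Ccnd2 was at 8.12, 6.57, 7.78 and 8.66 at P14, at 8.47, 8.58 and 8.89 at P21, at 6.03, 6.45, 7.10 and 7.73 at P28, and at 8.80 and 6.78 at P35. It was thus highest at P21 and lowest at P28 (range of means 1.82, adjusted p = 0.00992 without P56), and its P35 arrays stood apart from each other. Cdk4 (1.41), Cdkn1a (1.78) and Mcm7 (2.18) were each highest at P14 without P56. Mki67 stayed between 5.29 and 6.07 and Top2a between 5.32 and 6.23 in all 15 Stellate/Basket arrays, close to the Purkinje range after P7.

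The change between P14 and P56 was compared between the cell types by an interaction term. It was called for 7 of the 35 genes, 5 with a higher and 2 with a lower change in Purkinje cells, where 20.1% of all genes were called. Mcm7 changed by 0.65 in Purkinje and by -2.46 in Stellate/Basket cells (difference 3.10, adjusted p = 0.00313). Cdk4 changed by -0.03 in Purkinje and by -2.03 in Stellate/Basket cells (2.0, adjusted p = 2.91e-05). Pcna changed by 0.85 in Purkinje and by -1.14 in Stellate/Basket cells (1.99, adjusted p = 0.00388). For these genes of replication and G1, the Stellate/Basket value fell while the Purkinje value was not called.

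The others were Cdkn1b (1.11, adjusted p = 0.0443), Cdkn1a (1.10, adjusted p = 0.0191), Ccnd3 (-1.10, adjusted p = 0.00445) and Mcm3 (-1.40, adjusted p = 0.0079). In this interaction between P14 and P56, the 3 further Mcm7 probe sets gave differences of -0.14 to 0.04 and the other one of Ccnd3 -0.07. None of them was called, and a second Cdkn1b probe set was called the other way (-1.09). Both further probe sets of Cdk4, the other one of Cdkn1a and 1 of 3 further ones of Mcm3 were called the same way. All 7 rest on the 2 Stellate/Basket P56 arrays whose markers go against their label. With P35 as the last age, chosen here after seeing the data, Mcm7 alone was called (2.94, adjusted p = 0.0317), and Pcna (-0.87), Mcm3 (0.35) and Cdkn1b (-0.74) changed sign. Within P14 and P56, Mcm7 was 1.58 and not called without Stellate/Basket P56 replicate 1, Mcm3 was -0.92 without replicate 3, and Cdkn1b lost its call when any 1 of 9 arrays was left out.

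Purkinje and Stellate/Basket cells were then compared over the 5 ages at which both were taken. Averaged over these ages, 3 genes were higher and 2 lower in Purkinje cells, 5 in all, where 11.5% of all genes were called (6.37% higher and 5.13% lower). The median over the 35 was -0.17, beside 0.02 over all genes. The genes that were higher were Cdc20, Ccne2 and Bub1, and those that were lower Ccnd2 and Mcm7. Without P56, 6 were called, the same 5 and Cdkn1b (-1.01), and the share of all genes was not counted.

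Cdc20 (1439377_x_at), whose promoter window above holds a TTTGAA match between 2 CCAAT boxes, had its lowest value, median and highest value over the 19 Purkinje arrays at 7.18, 8.66 and 9.88, against 4.76, 5.43 and 7.51 over the 15 Stellate/Basket arrays. The cell types overlapped only in the Stellate/Basket P56 array of 7.51. The averaged difference was 2.92 ± 0.24 (adjusted p = 4.01e-12), and it was called at every age, namely P14 (3.2), P21 (3.10), P28 (3.65), P35 (2.43) and P56 (2.22). Its other 2 probe sets differed by 0.37 and 0.87 in the average and were not called, so the averaged result rests on 1 probe set. At single ages another Cdc20 probe set was called at P56 alone (1.14).

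Ccne2 was at 8.32, 8.68 and 7.91 in Purkinje cells at P14, against 6.06, 5.62, 6.19 and 6.64 in Stellate/Basket cells, and at 8.51, 6.78, 8.04 and 8.83 in Purkinje cells at P56, against 5.06 and 4.79. At both ages the types did not overlap, but the Stellate/Basket P56 values come from the 2 arrays that carry Purkinje and glial markers. At P21, P28 and P35 arrays of the types overlapped, with 1 Stellate/Basket P21 array at 8.10, and Ccne2 was not called. The averaged difference was 1.58 (adjusted p = 5.65e-08), and it was called at P14 (2.18) and at P56 (3.11). Bub1 was at 7.04, 7.21 and 6.88 in Purkinje cells at P14, against 5.31, 5.25, 5.39 and 5.57 in Stellate/Basket cells, and was called at P14 (1.66) and P21 (1.5), with an averaged difference of 1.08 (adjusted p = 1.14e-06). A single array, Purkinje P28 replicate 2 at 7.79, carried the P28 mean, and the averaged difference was 0.97 without it. Unlike for Cdc20, the other Bub1 probe set was called as well (1.30).

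On the lower side, Ccnd2 was at 6.01, 6.13, 6.72 and 6.69 in Purkinje cells at P21, against 8.47, 8.58 and 8.89 in Stellate/Basket cells, the widest gap of any shared age (-2.26). Its averaged difference was -1.49 (adjusted p = 3.11e-08), it was called at every age but P28 (at P35, -1.80, and -0.79 without Stellate/Basket P35 replicate 1; at P56, -1.13, and -0.53 without Stellate/Basket P56 replicate 3), and 3 of its 5 further probe sets were called. Mcm7 was at 6.67, 6.34 and 6.31 in Purkinje cells at P14, against 9.74, 8.94, 10.57 and 9.22 in Stellate/Basket cells (-3.18), and its averaged difference was -1.21 (adjusted p = 8.80e-05). That average was -0.91 without Stellate/Basket P56 replicate 3, and none of the 3 further Mcm7 probe sets was called (-0.30 to -0.03).

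At single ages, 8 of the 35 genes were called at P14 (13.3% of all genes), 6 at P21 (13.5%) and 4 at P28 (16.5%). The comparison at P35 called 3 genes (11.4% of all genes), and that at P56 called 6 (20.6%). At P14, Cdkn1a (-1.58), Cdk4 (-1.25) and Rrm2 (-1.76) were also lower in Purkinje cells, and Rrm2 lost its call when any 1 of 5 arrays was left out. At this age the Purkinje arrays had Xist between 6.47 and 6.59, against 12.77 to 12.88 in Stellate/Basket cells. With the level of Xist as a covariate, Rrm2 (-2.85), Cdk4 (-1.06) and Cdkn1a (-1.26) were still called at P14. Ccnd2 (-1.11, adjusted p = 0.14) was not, while Mcm5 (-1.76) and Rrm1 (-1.05) were called with Xist in the fit and not without it. Xist did not overlap between the cell types at P14, so its slope came almost wholly from other groups. Among them was Purkinje P7, where replicate 1, apart in the cell cycle genes, had Xist at 7.22, against 12.47 and 12.34. The values with Xist in the fit therefore cannot separate Xist from cell type at P14. Cdkn1b was lower in Purkinje cells at P28 (-1.25), where its arrays were at 7.11, 7.34, 7.19 and 7.43, against 8.41, 8.36, 8.85 and 8.43, without overlap, and at P35 (-1.34, and -0.90 without Stellate/Basket P35 replicate 1). Its second probe set differed by 0.32 at P28 and by 0.21 at P35 and was not called at either. Mcm3 was higher in Purkinje cells at P28, at 7.90, 7.84, 7.92 and 7.96, against 6.22, 6.48, 6.87 and 6.14 (1.48), and its 3 further probe sets differed by 0.08 to 0.66. None of the 4 genes called at P28 had another probe set called.

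Further calls were Ccne1 (-1.16) and Cdkn1c (1.32) at P21, Cdk6 (-1.02, and -0.92 without Stellate/Basket P28 replicate 2) at P28, and Pcna (2.56) and Ccnd3 (-1.19) at P56. The other Ccnd3 probe set differed by -0.02 at P56 and was not called. The P56 values again rest on the 2 Stellate/Basket arrays with Purkinje markers. Rrm2 at P56 (-1.72) rested on Stellate/Basket P56 replicate 3, at 8.21, and was -0.25 without it. Cdc20 at P56 was 1.48 and not called without Stellate/Basket P56 replicate 1.

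**Figure D5:**
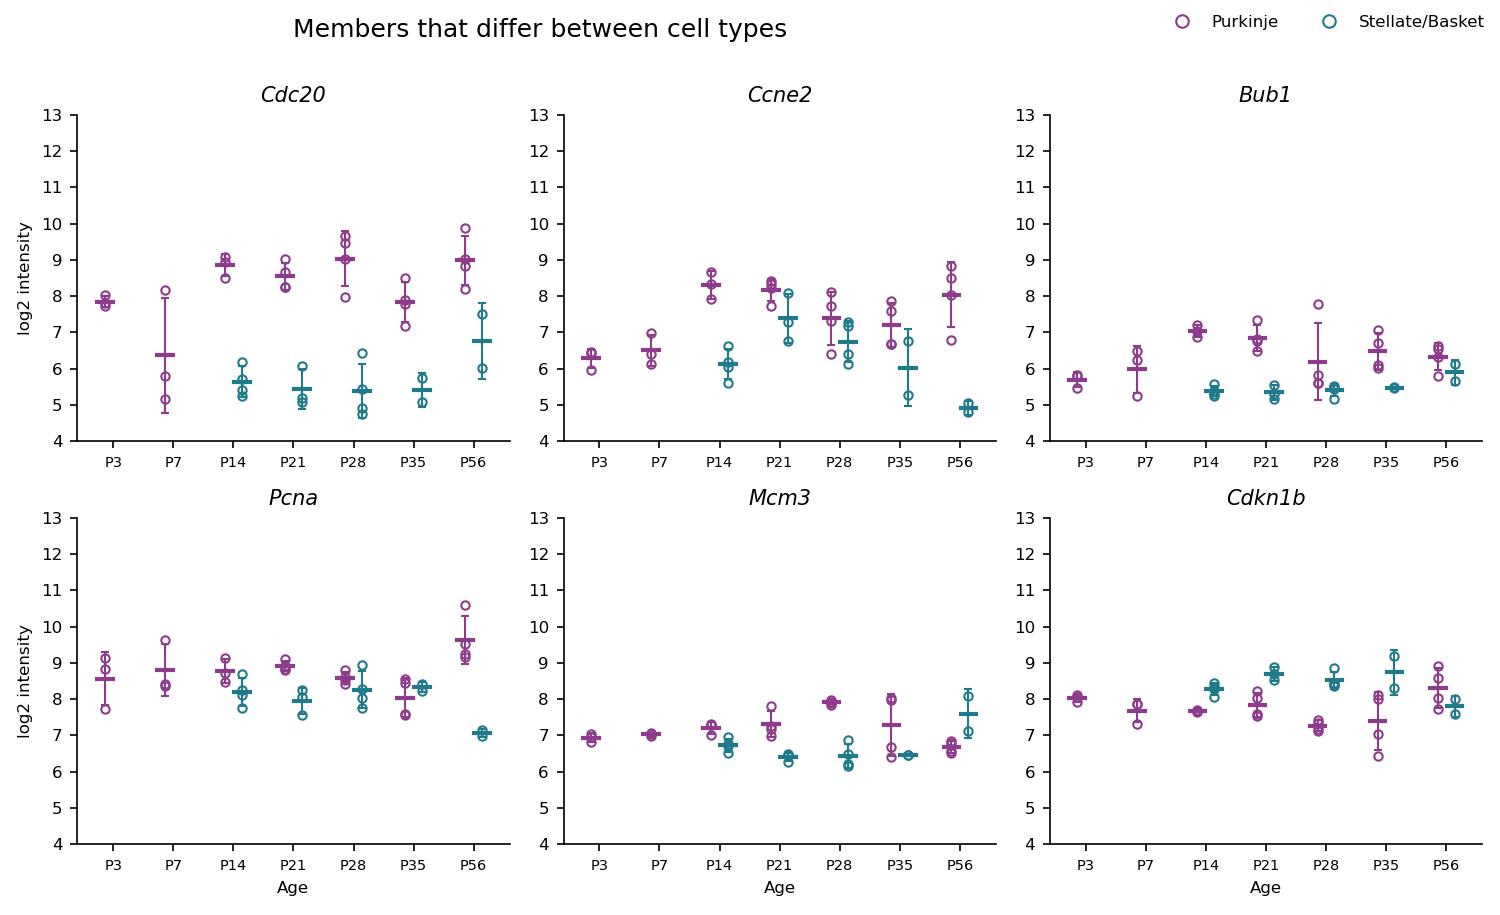
Log2 expression of Cdc20, Ccne2, Bub1, Pcna, Mcm3 and Cdkn1b by age in Purkinje and Stellate/Basket cells; circles are arrays, bars group means and error bars the SD. Cdc20 lies between 7.18 and 9.88 in Purkinje arrays from P14 on and between 4.76 and 7.51 in Stellate/Basket arrays, and Mcm3 and Cdkn1b split into pairs among the Purkinje P35 arrays.

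The earliest Purkinje arrays were also set against the earliest Stellate/Basket arrays, since both carry interneuron markers. In Purkinje P3 against Stellate/Basket P14, 5 genes were higher and 1 lower, where 4.03% of all genes were called, and the median over the 35 was 0.29, beside -0.01 over all genes. Age and cell type differ together here and cannot be told apart.

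Cdkn1c was at 11.67, 11.87 and 12.04 in Purkinje P3, against 5.27, 5.26, 5.99 and 5.44 in Stellate/Basket P14, the largest of these differences (6.37, 82.6-fold, adjusted p = 1.97e-18). Ccnd2 was higher by 2.75 (adjusted p = 6.86e-06), Top2a by 2.40 (adjusted p = 5.23e-04), Cdc20 by 2.21 (adjusted p = 0.00418) and Mki67 by 1.70 (adjusted p = 0.00314), and Ccne1 was lower (-1.03, adjusted p = 0.0015, and -0.83 without Purkinje P3 replicate 3). None of the further probe sets of Top2a (-0.04 and 0.14) and Cdc20 (0.16 and 0.41) was called, and 4 of 5 of Ccnd2 were. Cdk4, Cdkn1a and Mcm7 were called in neither direction: Cdk4 was at 9.20, 9.34 and 9.24 in Purkinje P3, against 8.88, 8.59, 9.04 and 9.34 in Stellate/Basket P14, and Cdkn1a at 11.24, 10.79 and 10.92, against 10.45, 10.82, 10.99 and 11.06. Mcm7 was at 9.44, 9.74 and 9.92, against 9.74, 8.94, 10.57 and 9.22. These 3 genes overlapped between the groups.

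Other genes of the pathway were counted from 5 further lists. In Purkinje cells at P56 against P3, where 16.5% of all genes were called (7.81% lower and 8.71% higher), 6 of 39 measured genes of origin licensing and the replication fork fell and none rose, led by the primase subunit Prim1 (-2.03), the dUTPase Dut (-1.42), the polymerase subunit Pold1 (-1.35) and the licensing factor Cdt1 (-1.30). Of 46 genes of the spindle, kinetochore and cytokinesis, 5 rose and 3 fell, a share near that of all genes, with the spindle protein Spag5 (4.72), the kinase Nek2 (2.77) and the securin Pttg1 (2.25) higher and the kinase subunit Cks2 (-2.27) lower. None of 16 genes of the retinoblastoma and E2F families was called. Of 19 other regulators of cyclin-dependent kinases, 3 rose and 4 fell, among them Skp2 (-2.19), whose product marks Cdkn1b for degradation, and Cdk5 (1.48), a kinase of postmitotic neurons. The p53 and checkpoint list had 1 of 13 lower, Btg2 (-1.97), an antiproliferative gene.

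In Purkinje cells at P56 against P14, 4 of the 46 spindle genes rose, Tpx2, Cenpa, Smc2 and Nek2, by 1.35 to 1.62, where 1.3% of all genes rose, and none of the 39 replication genes was called. Between the cell types over the 5 shared ages, 5 of 46 spindle genes were higher in Purkinje cells and none lower (6.37% of all genes were higher and 5.13% lower), led by Spag5 (3.02), Cks1b (2.66), Nek2 (1.64) and Cdca8 (1.38). The replication list had 1 of 39 higher, the licensing inhibitor Gmnn (1.12). Of the 19 other regulators, 2 were higher, among them Cdk5 (1.44), and 3 lower, the cyclins Ccng2 (-2.83) and Ccni (-2.09) and Skp2 (-1.81). Of the 13 genes of the p53 and checkpoint list, the antiproliferative Btg1 (-2.40) and Btg2 (-1.07) were lower and none higher. In Stellate/Basket cells at P56 against P14, 5 of 39 replication genes fell, near the 12.3% of all genes that did, led by the kinase Cdc7 (-2.0) and by Prim1 (-1.86), again with the P56 arrays that carry Purkinje and glial markers.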

How the data were processed

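Arrays of the type Affymetrix MOE430.2 were deposited as log2 values per probe set, which the authors had normalized; R 2.9.1 and GCRMA stand in the submitters' processing notes, with further steps not given in the sources used here. Each of the 42 columns was taken with its sample label, and 2 that equal means of others within 1e-08 were left out. Probe sets with 1 symbol numbered 34958, those with several 932 and those with none 9211; only the first were used, and no further scaling was done. Array medians ran between 5.91 and 6.16, and precision is limited by how few arrays each group holds.

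The limma package (3.58.1, R 4.3.3) fitted a mean for each of 12 groups over 40 arrays, with moderated variances, and p-values were adjusted by Benjamini-Hochberg over 17478 genes within each comparison. F tests called a gene at an adjusted p under 0.05 with group means spanning at least 1. The fit was tested on simulated data. Named were all 35 measured cell cycle genes, and of the other lists up to 4 called genes with the largest differences. The genes, the lists of markers and of the pathway, and the comparisons were chosen with earlier results of these data known. Promoters came from RefSeq on GRCm38.p6, with 33 windows, 1 of them of Ccnb1; Ccna2, Ccnd1, Ccnd2, Ccne2, Cdkn1c, Mcm4 and Aurkb had no entry. 1 probe set that names Tyms among several symbols was not used. The replicate numbers were checked for pairing: residual correlations of arrays with the same number ran between -0.47 and 0.34, so no block was used. Alternatives covered filters, probe set summaries, variance models, weights, scaling, thresholds, Xist, ages and single arrays.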

Additional observations from a re-analysis of the deposited data

Results flagged for a closer look

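In groups of 4 arrays, 14 of 210 gene and group pairs held 1 array farther from the others than Dixon's 95% critical value allows, where chance gives about 1 in 20. In Purkinje cells these were Aurkb (6.64) and Cdk1 (6.75) in P56 replicate 2, Bub1 (7.79) in P28 replicate 2, Ccnd3 (6.64) and Rrm2 (5.08) in P28 replicate 1, Cdk4 (8.25) in P21 replicate 3, and Mcm7 (6.24), Top2a (5.35) and Tyms (5.14) in P21 replicate 1. In Stellate/Basket cells they were Mki67 (6.07) and Top2a (6.23), both in P14 replicate 3, Bub1b (6.16) in P28 replicate 1, Cdkn1b (8.85) in P28 replicate 3 and Top2a (5.88) in P28 replicate 4. For Bub1 the other Purkinje P28 arrays lay between 5.59 and 5.82, and for Cdk1 the other Purkinje P56 arrays between 5.80 and 5.87. Mcm7 and Top2a were low, and Tyms was high, in the same Purkinje P21 array.

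The change between P14 and P56 differed between Purkinje and Stellate/Basket cells by the interaction test in 7 of the 35 genes. That share of 20% was no higher than the 20.1% of all genes called. The differences were 3.10 for Mcm7, 2.0 for Cdk4, 1.99 for Pcna, 1.11 for Cdkn1b, 1.10 for Cdkn1a, -1.10 for Ccnd3 and -1.40 for Mcm3. A second Cdkn1b probe set was called in the opposite direction (-1.09). The part of the Purkinje and glial markers in the Stellate/Basket P56 arrays was not tested beyond the fits with P35 as the last age.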

How the results depend on the processing

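Of 1097 values of called genes under alternatives other than leaving out single arrays, 979 kept their call, 113 lost it and 5 changed sign; without single arrays, 612 of 680 kept it, 68 lost it and none changed sign. With P35 as the last age, chosen after seeing the data for the interaction, counts were 2 in Stellate/Basket cells and 1 for the interaction, and Pcna changed sign at P56 against P3 (-0.53) and in Stellate/Basket cells (0.12), as did Cdkn1b (-0.74), Mcm3 (0.35) and Pcna (-0.87) in the interaction. With no minimum difference, counts were 22 for Purkinje P56 against P3, 3 for P56 against P14, 10 for Stellate/Basket cells, 11 for the interaction, 19 for the average between cell types, and at single ages 11 (P21), 7 (P28), 5 (P35) and 12 (P56). With a minimum of 1.5 they were 3 for the interaction, 2 for the average, 3 at P21, 1 at P28 and 12 over Purkinje ages. Array weights gave 1 for Purkinje P56 against P14, 2 for Stellate/Basket cells, 2 for the interaction and 3 at P56; the mean of probe sets gave 3 for the average and 1 at P28; quantile normalization gave 8 for Stellate/Basket cells; and every probe set on its own gave 8 for Stellate/Basket cells and 10 at P56. Xist as a covariate gave 2, and only the groups compared 1, for Purkinje P56 against P14, and with only the groups compared 1 was called at P35. The average without P14 was 3, and the F tests gave 4 in Purkinje cells without P3 and P7 and 4 in Stellate/Basket cells without P56. Without single arrays, counts ran between 12 and 15 for Purkinje P56 against P3, 8 and 15 for P14 against P7, 0 and 1 for P56 against P14, 4 and 6 for Stellate/Basket cells, 4 and 8 for the interaction, and 4 and 6 for the average. They ran between 7 and 9 at P14, 5 and 7 at P21, 3 and 5 at P28, 3 and 4 at P35, 4 and 8 at P56, 5 and 8 for Purkinje P3 against Stellate/Basket P14, and 17 and 20 and 7 and 10 in the F tests. The cause of these moves was not tested, except where fewer arrays or another threshold sets the count. A replicate block gave 12 for Purkinje P56 against P3, 12 for P14 against P7, 0 for P56 against P14, 5 for Stellate/Basket cells, 8 for the interaction and 5 for the average; it lost Pcna at P56 against P3 (0.95), Cdkn1b in the interaction, Rrm2 at P14 and P56 and Mcm7 at P21. Shares of all genes were not counted under most of these alternatives. The exceptions, given above, were P14 against P7 and the Purkinje ages without Purkinje P7 replicate 1. The other counts therefore cannot be set against a background, and whether their moves are particular to the cell cycle genes was not tested. Genes near the bottom of the scale have no detection calls, so their folds are uncertain.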
